A study of Mus musculus with 50 samples.

Results

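Lymph nodes draining the jejunum and the ileum of mice on a vitamin A sufficient diet were compared by poly(A) RNA sequencing. The libraries were chosen by their labels alone, 5 jejunal and 5 ileal, and make up 10 of the 50 libraries of the series. The mice were of genotype C57B6, as the labels write it, and were taken at postnatal day 56 from the second and the third litters of C57BL/6J dams. The dams ate a chow holding 20 IU/g of vitamin A, from 3 weeks before mating, and this diet is the control of the series. In both nodes replicates 1 and 2 were female and replicates 3, 4 and 5 male. The other diet of the series lacked vitamin A, all of its mice were female, and its jejunal and ileal nodes (5 libraries each) appear below as a separate set. The labels name the drained segment but do not say which jejunal and ileal nodes came from the same mouse or litter, or whether nodes were pooled. The p-values therefore measure the spread between libraries, which was estimated over all 50 of the series and not over these 10 alone. This spread may be technical.

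Lymph from the small intestine carries absorbed lipid, antigen and migrating cells to the mesenteric nodes, and each node of the chain receives lymph from its own stretch of gut. Within a node, lymph passes through sinuses lined by lymphatic endothelium and filled with macrophages, which take up particles with scavenger receptors and lectins before cells and fluid leave through the medulla. Retinoic acid, made from vitamin A by stromal and dendritic cells, acts on lymphocytes through nuclear receptors.

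The 10 libraries held between 5836288 and 8487925 estimated counts (median 7130459), and between 25167 and 26779 genes had an estimated count above 0. Levels are CPM, the counts scaled to library size, after TMM scaling, which sets libraries to a common composition. The labels were checked against genes that mark gut-draining nodes. The homeobox factor Nkx2-3 averaged 11.4 ± 1.4 CPM (SD, n = 5) in jejunal and 9.51 ± 2.45 CPM in ileal nodes, against 0.0302 ± 0.0675 CPM in the 5 inguinal nodes of the same diet. The mucosal addressin Madcam1 averaged 58.5 ± 7.26, 65.4 ± 5.26 and 8.25 ± 1.46 CPM in the same order. Both sets were thus gut-draining nodes by these genes. No list used here held a gene that defines a jejunal or an ileal node, so the segment itself was taken from the labels. Adipose genes and pancreatic genes differed among the libraries and are given beside the results they touch.

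Of 18077 genes tested, 96 (0.531%) passed the threshold of 0.05 on the adjusted p (edgeR's quasi-likelihood test, Benjamini-Hochberg adjustment), 26 (0.144%) higher and 70 (0.387%) lower in jejunal than in ileal nodes. Unadjusted, 1751 genes (9.69%) had a p under 0.05, in nearly equal numbers higher (881, 4.87%) and lower (870, 4.81%). The median absolute log2 fold change of the 96 was 0.77. A fall of over 1 on the log2 scale was found for 22 of them and a rise of over 1 for 6. In 63 of the 96 the 5 jejunal and 5 ileal libraries did not overlap, and over all genes tested 324 (1.79%) did not overlap, 180 (0.996%) with jejunal libraries above and 144 (0.797%) with jejunal libraries below. The number of calls moved with the libraries used. It was 53 without jejunal replicate 1, 47 without jejunal replicate 2, 50 without jejunal replicate 4, 41 without ileal replicate 1, 53 without ileal replicate 2, 37 without ileal replicate 4 and 148 without ileal replicate 5. In each of the 10 fits that left out 1 library, 24 of the 96 passed, and 23 of these 24 were lower in jejunal nodes. The lean to lower genes was not seen in a fit of the 10 libraries alone, where more calls were higher than lower. All 96 kept their sign in every alternative fit that tested them. Those fits reuse libraries from which the 96 were chosen, so this gives no separate support.

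**Figure D1:**
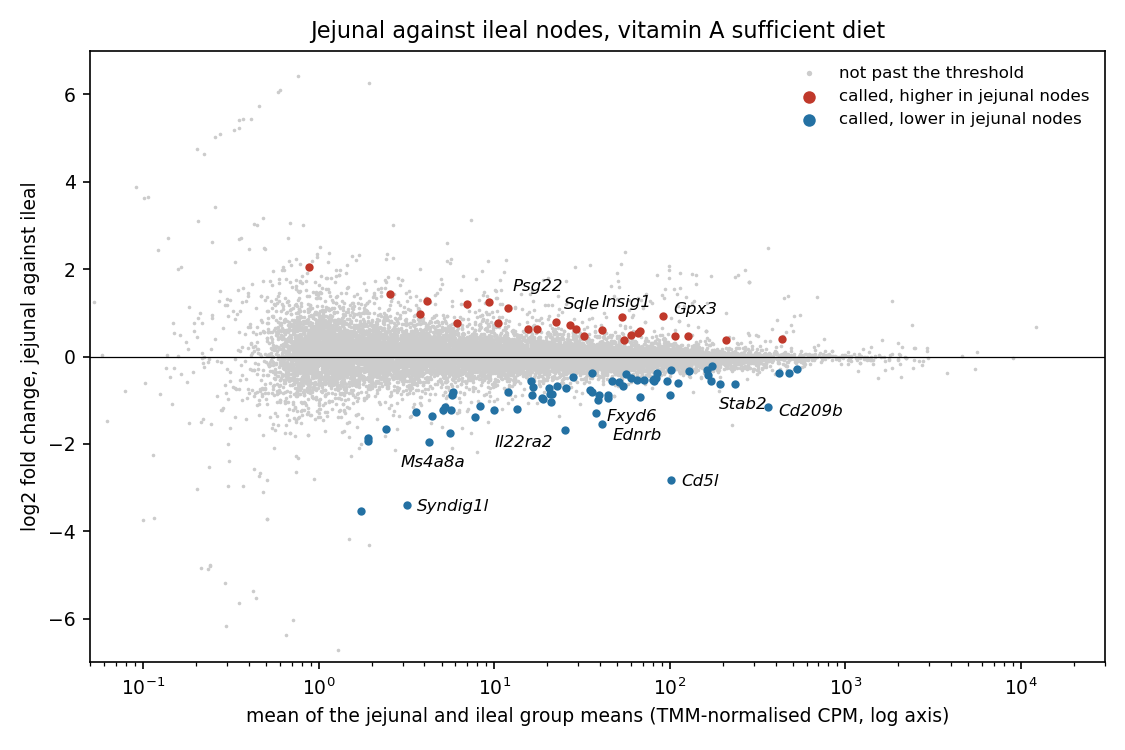
Log2 fold change of jejunal against ileal nodes (vertical axis) by the mean level of the 2 groups in CPM (horizontal axis, log scale), with 1 point for each gene tested. Coloured points are the 96 genes past the threshold, 26 above and 70 below the line at 0, and of the labelled points Syndig1l and Cd5l are the lowest.

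Of 23 tested genes of lymph node macrophages 3 were lower in jejunal nodes, Cd5l, Cd209b and Folr2. Cd5l, a secreted scavenger receptor protein of tissue macrophages, was 7.07-fold lower in jejunal nodes. Its level was 24.2, 20.7, 26.5, 32.4 and 20.7 CPM in jejunal replicates 1 to 5 and 144, 213, 219, 210 and 98.7 CPM in ileal replicates 1 to 5. The groups did not overlap, and ileal replicate 5 was the lowest of its group, at over 3 times the highest jejunal value. The log2 fold change was -2.82 ± 0.33 (SE), and edgeR's quasi-likelihood test gave an adjusted p of 7.5e-07. Duodenal nodes averaged 18.1 ± 7.98 CPM, colonic nodes 39.9 ± 24.8 CPM and inguinal nodes 13.5 ± 4.37 CPM, so the ileal mean of 177 ± 53.4 CPM was the highest of the 5 nodes.

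Cd209b, a C-type lectin of sinus and marginal macrophages that binds polysaccharides, was also lower. It stood at 188, 239, 208, 216 and 269 CPM in jejunal and at 411, 676, 471, 562 and 385 CPM in ileal libraries. All jejunal values lay below all ileal values (log2 fold change -1.16 ± 0.18, edgeR adjusted p = 1.69e-04). Folr2, the folate receptor of tissue macrophages, averaged 8.15 ± 1.8 CPM in jejunal and 18.9 ± 5.81 CPM in ileal nodes (log2 fold change -1.21 ± 0.24, edgeR adjusted p = 0.00742), again without overlap. Of the 23 genes 10 had an unadjusted p under 0.05 on the lower side and 1 on the higher side. The median log2 fold change of the list was -0.27, beside -0.01 over all genes. Of the 23 log2 fold changes 2 were positive. Adgre1, which encodes the macrophage antigen F4/80, averaged 83 ± 12.9 and 83 ± 8.04 CPM (log2 fold change 0.00 ± 0.18), and its sign changed among the alternative fits. Marco, a scavenger receptor, averaged 1283 ± 353 and 1793 ± 302 CPM (log2 fold change -0.49 ± 0.18, edgeR adjusted p = 0.272). Timd4, a receptor for dying cells, averaged 44.4 ± 6.24 and 59.6 ± 10.3 CPM (edgeR adjusted p = 0.162). In whole nodes, fewer cells of a type and less RNA per cell cannot be told apart.

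Cd5l, Cd209b and Folr2 passed in each of the 10 fits that left out 1 library. Leaving out the 4 libraries whose pancreatic genes summed to over 100 CPM leaves 2 jejunal libraries, all female, and 4 ileal libraries of both sexes. Without the 4, Cd5l (log2 fold change -3.33, edgeR adjusted p = 0.00105) and Cd209b (-1.31, 0.0299) passed and Folr2 did not (-1.21, 0.164). The same 3 genes passed with a term for the adipose sum.

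Scavenger receptors and lectins of the sinus lining were lower in 2 of 14 tested genes, Cd209b and Stab2. Stab2 is a receptor through which sinusoidal and lymphatic endothelium clears hyaluronan. It stood at 205, 162, 169, 184 and 205 CPM in jejunal and at 303, 274, 315, 325 and 215 CPM in ileal libraries. The groups did not overlap, but ileal replicate 5 lay only just above the highest jejunal library. Its log2 fold change was -0.63 ± 0.15 (edgeR adjusted p = 0.0333). The call held only without jejunal replicate 5 and without ileal replicate 5, and in the other 8 fits that left out 1 library the adjusted p rose to at most 0.171. The median of the list was -0.17, and 12 of the 14 members were negative.

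Among 18 tested genes of lymphatic endothelium 1 was lower, the integrin Itga9, which is known for its part in lymphatic valves. Its level was 89.4, 69.3, 62.2, 51.3 and 76.5 CPM in jejunal and 183, 141, 110, 123 and 90.3 CPM in ileal libraries. The highest jejunal and the lowest ileal library lay within 1 CPM of each other without crossing (log2 fold change -0.87 ± 0.19, edgeR adjusted p = 0.0187), and the call was lost without jejunal replicate 2 or 4 or ileal replicate 1 or 4. Flt4, the receptor for lymphatic growth factors, averaged 66.9 ± 13.3 and 98.9 ± 18.5 CPM (log2 fold change -0.56 ± 0.15, edgeR adjusted p = 0.0782). Prox1, the transcription factor of lymphatic identity, averaged 40.2 ± 7.28 and 60 ± 16.5 CPM (log2 fold change -0.57 ± 0.15, edgeR adjusted p = 0.0782). Both lay under the threshold without ileal replicate 5 (edgeR adjusted p = 0.0441 for Flt4 and 0.0105 for Prox1) and with DESeq2 (adjusted p = 0.0285 for Flt4 and 0.0299 for Prox1). The list had 2 lower genes with limma-voom, 4 with DESeq2, 2 with the adipose term, 4 without ileal replicate 5, and 0 without jejunal replicate 2 or 4, ileal replicate 1 or 4 or the 4 libraries with high pancreatic sums. Ccl21a, a chemokine shared by lymphatic endothelium and T zone stroma, pointed the other way in its means, with 1835 ± 311 and 1414 ± 287 CPM (edgeR adjusted p = 0.219). The median of the lymphatic list was -0.25, with 4 of 18 members positive. Clca3a1, a surface protein of lymphatic endothelium outside the list and named here after its value was seen, was lower in jejunal nodes. It averaged 46.9 CPM in jejunal and 88.8 CPM in ileal nodes (log2 fold change -0.92 ± 0.16, edgeR adjusted p = 0.00266), and it passed in each of the 10 fits that left out 1 library.

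Ednrb, the type B endothelin receptor, was placed with the endothelial genes and differed most among them. Its level was 20.2, 15.8, 24.7, 22.3 and 22 CPM in jejunal libraries and 70.7, 54.6, 76.1, 68.5 and 34.1 CPM in ileal libraries. No values crossed, and ileal replicate 5 was again the lowest ileal library. Ednrb was 2.90-fold lower in jejunal nodes (log2 fold change -1.53 ± 0.22, edgeR adjusted p = 6.49e-05). Duodenal, colonic and inguinal nodes averaged 9.92 ± 1.24, 20.7 ± 2.49 and 7.24 ± 1.04 CPM, so that the ileal mean of 60.8 ± 16.9 CPM stood alone and the jejunal and colonic means (21 ± 3.32 and 20.7 ± 2.49 CPM) lay within their spread. In the same list of 17 tested genes, endomucin (Emcn), a surface sialomucin of capillary and venous endothelium, was higher in jejunal nodes at 13.2 ± 3.18 against 7.73 ± 1.95 CPM (log2 fold change 0.76 ± 0.19, edgeR adjusted p = 0.037). The ranges of Emcn overlapped, and its call was lost in 6 of the 10 fits that left out 1 library. The other 15 genes of the list did not pass, among them Madcam1 (log2 fold change -0.16 ± 0.20, edgeR adjusted p = 0.927).

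Because the mice differed from others of the series in vitamin A, the 250 bases before the start of called genes were searched for the letters of a retinoic acid response element. The search took a pair of short sites in the same direction with 1, 2 or 5 bases between them, on both strands. The sites were AGGTCA, the standard form, then the known variant GGGTCA, and finally the known variant AGTTCA. Such a pair was found in 0.292% of 32851 RefSeq windows of that length (build GRCm38.p6) and in 1 of 71 called genes with a window, Slc7a7. The windows of Cd5l (chr3:87357631-87357880, plus strand) and Ednrb (chr14:103843702-103843951, minus strand), which carry the clearest differences in macrophage and endothelial genes, are shown 5′ to 3′ and hold no such pair, which says only that these letters are not in these windows.
Cd5l: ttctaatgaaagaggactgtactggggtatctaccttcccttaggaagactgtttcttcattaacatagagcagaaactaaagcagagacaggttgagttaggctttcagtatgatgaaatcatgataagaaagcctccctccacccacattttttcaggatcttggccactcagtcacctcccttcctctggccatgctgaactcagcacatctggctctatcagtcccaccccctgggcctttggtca
Ednrb: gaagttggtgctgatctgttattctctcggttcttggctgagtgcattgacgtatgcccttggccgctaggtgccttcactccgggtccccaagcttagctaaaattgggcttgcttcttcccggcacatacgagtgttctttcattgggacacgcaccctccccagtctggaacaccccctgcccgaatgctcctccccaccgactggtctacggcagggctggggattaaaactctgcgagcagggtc

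Il22ra2 encodes a soluble receptor that binds and blocks interleukin 22, a cytokine that acts on intestinal epithelium. Its level was 14.8, 15.2, 10.7, 10.6 and 8.71 CPM in jejunal libraries and 34, 41.8, 33.2, 55.8 and 28.8 CPM in ileal libraries. Jejunal and ileal values lay apart (log2 fold change -1.68 ± 0.24, edgeR adjusted p = 6.49e-05). Duodenal (11.2 ± 4.92 CPM) and jejunal nodes (12 ± 2.83 CPM) were lowest and within each other's spread, and ileal nodes lay between (38.7 ± 10.6 CPM). Colonic (75.1 ± 14.3 CPM) and inguinal nodes (79.5 ± 15.3 CPM) were highest and within each other's spread. Il22ra2, which is not a marker of type 3 lymphocytes, was listed with their genes and was the 1 call among 10 tested. It passed in each fit that left out 1 library, and not without the 4 libraries with high pancreatic sums (log2 fold change -1.26, edgeR adjusted p = 0.153).

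**Figure D2:**
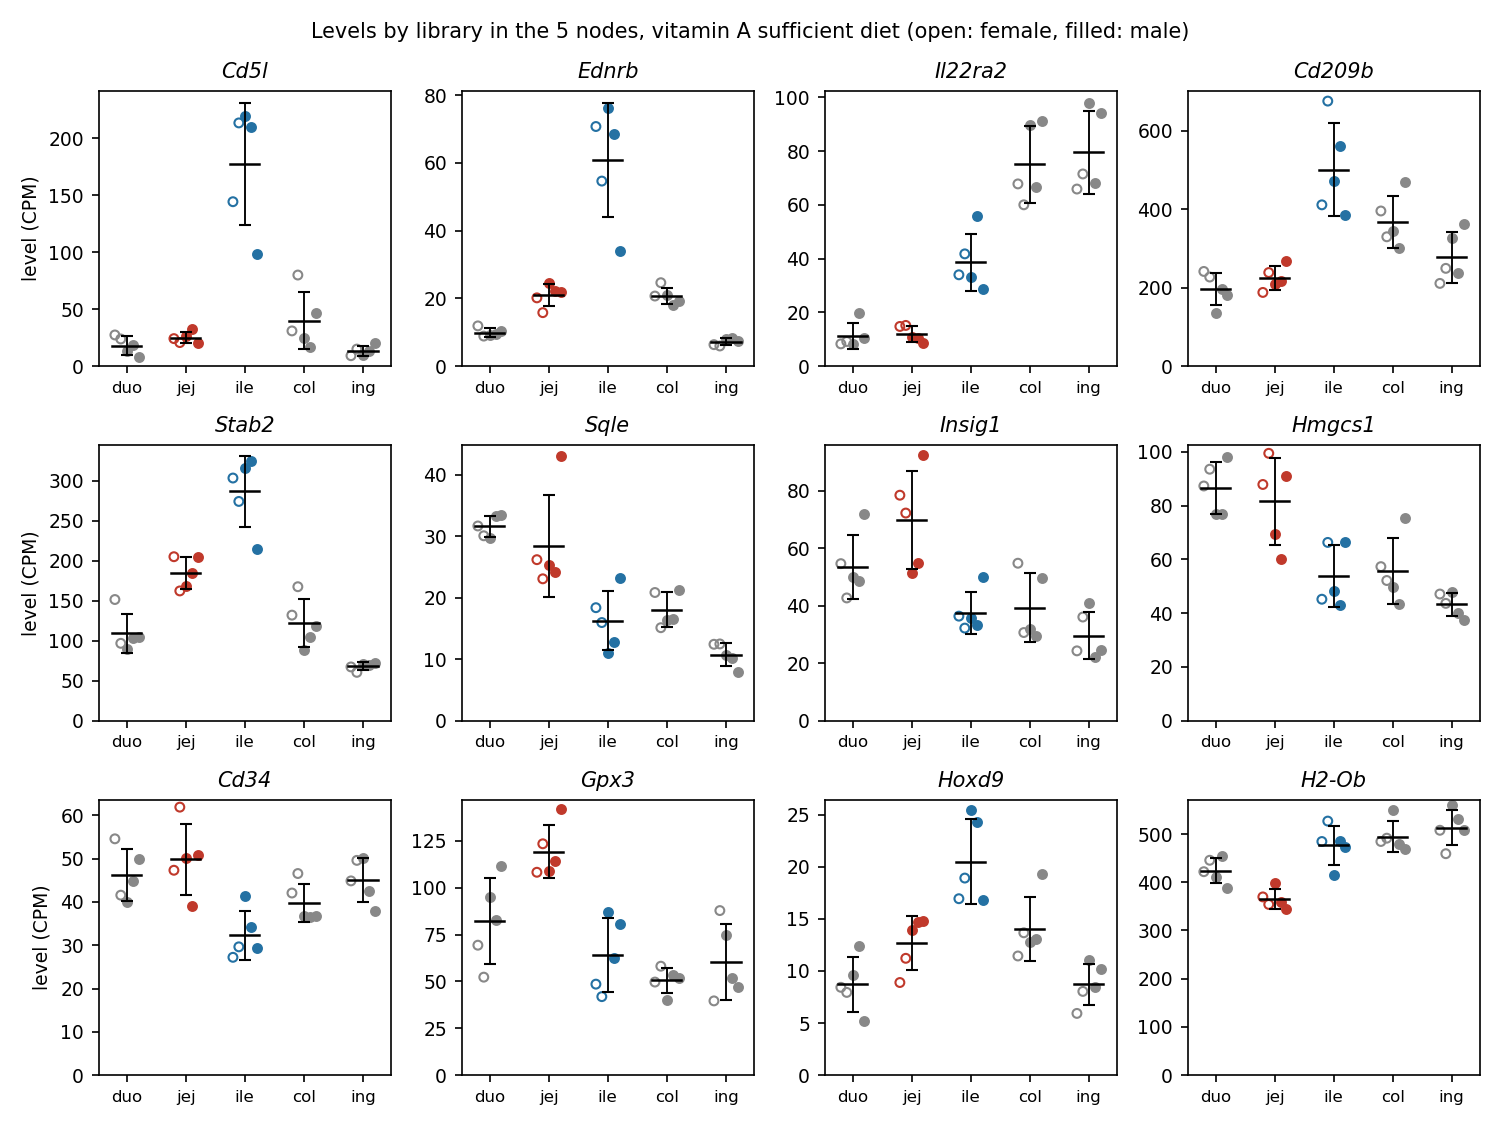
Levels in CPM (vertical axis) of 12 genes in each of the 25 libraries of the sufficient diet, by node (duo, duodenal; jej, jejunal; ile, ileal; col, colonic; ing, inguinal), with the mean and SD of the 5 libraries. Cd5l and Ednrb stand highest in ileal nodes, Il22ra2 steps up from jejunal to ileal nodes and again to colonic nodes, and the sterol genes Sqle, Insig1 and Hmgcs1 stand higher in duodenal and jejunal than in ileal nodes.

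A gene of low level was also lower. Syndig1l, a membrane protein related to a factor of synapse differentiation, had 2, 1, 4, 6 and 6 rounded counts in jejunal and 30, 65, 36, 58 and 13 in ileal libraries. These amount to 0.533 ± 0.318 CPM and 5.81 ± 3.19 CPM without overlap (log2 fold change -3.40 ± 0.40, edgeR adjusted p = 7.5e-07). Duodenal nodes averaged 0.258 ± 0.2 CPM, and colonic and inguinal nodes 8.42 ± 1.93 and 7.61 ± 2.65 CPM, so jejunal nodes were near the duodenal level and ileal nodes near the colonic level. Ms4a8a, a membrane protein of the MS4A family, followed with 1.73 ± 0.426 and 6.81 ± 1.3 CPM (log2 fold change -1.96 ± 0.26, edgeR adjusted p = 9.46e-06). Both passed without the 4 libraries with high pancreatic sums.

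The 12 largest falls among genes above 5 CPM also included the calcium channel subunit Cacng4 (log2 fold change -1.39 ± 0.30), the sodium channel subunit Scn3b (-1.26 ± 0.31), the vesicular monoamine transporter Slc18a1 (-1.36 ± 0.27) and Fxyd6, a regulator of the sodium pump (-1.29 ± 0.23). Fxyd6 had the highest levels of these, at 22 ± 2.61 CPM in jejunal and 53.7 ± 18.9 CPM in ileal nodes, where ileal replicate 5 (26.7 CPM) came nearest to the highest jejunal library (24.3 CPM). Slc18a1 and Fxyd6 passed in each fit that left out 1 library, and Scn3b passed in 2 of the 10. The 12 falls also held Lrrn4cl (log2 fold change -1.22 ± 0.30) and Gm12972 (-1.74 ± 0.31), for which no role is given here. Gm12972 passed in each fit that left out 1 library. Lrrn4cl passed in 1 of the 10, and its ranges overlapped.

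Of 18 tested genes of cholesterol synthesis and uptake 4 were higher in jejunal nodes, Sqle, Insig1, Hmgcs1 and Msmo1. Cells make cholesterol from acetyl units when sterol is low, because a membrane-bound transcription factor, held back by INSIG proteins when sterol is plentiful, then enters the nucleus and acts on the genes of the pathway. Of the 18 genes 12 had an unadjusted p under 0.05 on the higher side, and all 18 log2 fold changes were positive (median 0.51, beside -0.01 over all genes). Squalene epoxidase (Sqle), which catalyses the first oxygen-requiring step, stood at 26.2, 23.1, 25.3, 24.2 and 43 CPM in jejunal and at 18.4, 15.9, 11.1, 12.7 and 23.1 CPM in ileal libraries. Replicate 5 was the highest library of both nodes, and the ranges touched at 23.1 CPM (log2 fold change 0.80 ± 0.17, edgeR adjusted p = 0.0146). Insig1, which retains the sterol-sensing complex and is itself switched on by it, stood at 78.4, 72.2, 51.3, 54.9 and 92.3 CPM in jejunal and at 36.3, 32.2, 35.8, 33.1 and 50 CPM in ileal libraries. All jejunal values were above all ileal values (log2 fold change 0.90 ± 0.21, edgeR adjusted p = 0.0279).

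The synthase Hmgcs1, which makes the precursor of mevalonate, averaged 81.6 ± 16.3 and 53.9 ± 11.6 CPM (log2 fold change 0.59 ± 0.14, edgeR adjusted p = 0.0285). The methylsterol oxidase Msmo1, which acts late in the pathway, averaged 33.5 ± 5.66 and 20.1 ± 3.78 CPM without overlap (log2 fold change 0.73 ± 0.18, edgeR adjusted p = 0.0417). Among members that did not pass, Sc5d, a desaturase of a late step, had the smallest edgeR adjusted p (log2 fold change 0.53 ± 0.14, adjusted p = 0.0572). Duodenal nodes had means of 31.6 ± 1.75 CPM for Sqle, 53.5 ± 11.1 CPM for Insig1 and 86.6 ± 9.58 CPM for Hmgcs1, which lay within or close to the jejunal spread. The duodenal mean of Msmo1, 47.3 ± 12.5 CPM, lay above its jejunal spread.

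The number of calls in the list was 4 with edgeR, 6 with limma-voom and 7 with DESeq2. With edgeR the number of calls in the list was 0 without jejunal replicate 5, without ileal replicate 3 or without ileal replicate 4, and 8 without ileal replicate 5. It was also 0 in a fit of the 10 libraries alone, 0 without the 4 libraries with high pancreatic sums and 1 (Sqle) with a term for the adipose sum, while the median of the list was 0.52, 0.64 and 0.42 in these 3 fits. Of the 10 fits that left out 1 library, Sqle passed in 7, Hmgcs1 in 4, Insig1 in 3 and Msmo1 in 1. The adipose sum moved in the same direction as these genes, and its part in them was not tested beyond that term.

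The letters TCACNCCAC, as in a known sterol regulatory element, were looked for on both strands in the same windows. They stood in 1.05% of all 32851 windows and in 1 of the 11 genes of the list that have a window, Hmgcs1, where the match lay 137 bases before the start. The windows of the 3 called genes in the table are given 5′ to 3′, for Hmgcs1 (chr13:119690101-119690350, plus strand), Insig1 (chr5:28071162-28071411, plus strand) and Msmo1 (chr8:64733579-64733828, minus strand), with the match in capitals.
Hmgcs1: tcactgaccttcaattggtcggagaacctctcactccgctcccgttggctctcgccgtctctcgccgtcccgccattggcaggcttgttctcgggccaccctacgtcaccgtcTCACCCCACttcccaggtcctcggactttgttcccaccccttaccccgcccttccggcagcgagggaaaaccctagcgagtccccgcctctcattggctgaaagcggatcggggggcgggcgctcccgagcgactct
Insig1: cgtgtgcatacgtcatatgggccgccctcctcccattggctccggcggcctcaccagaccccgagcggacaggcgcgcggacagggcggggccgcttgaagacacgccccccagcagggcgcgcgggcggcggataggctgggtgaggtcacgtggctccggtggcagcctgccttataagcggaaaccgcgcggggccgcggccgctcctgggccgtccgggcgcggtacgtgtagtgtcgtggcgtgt
Msmo1: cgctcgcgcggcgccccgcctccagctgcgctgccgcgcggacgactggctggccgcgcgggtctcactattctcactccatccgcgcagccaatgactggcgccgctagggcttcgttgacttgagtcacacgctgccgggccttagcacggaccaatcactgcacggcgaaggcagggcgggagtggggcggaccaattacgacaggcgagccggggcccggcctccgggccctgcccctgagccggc

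Liver X receptors are nuclear receptors for oxidised sterols that act in the opposite sense, on genes of cholesterol export. Of 10 tested targets 1 passed, Mylip, a ubiquitin ligase that limits sterol uptake. Mylip was lower in jejunal nodes, with 87.4, 79.4, 106, 87.6 and 78.3 CPM against 133, 128, 141, 152 and 115 CPM in ileal libraries. The groups did not overlap (log2 fold change -0.61 ± 0.10, edgeR adjusted p = 7.32e-04), and the call held in each fit that left out 1 library and without the 4 libraries with high pancreatic sums. The exporter Abca1 averaged 141 ± 68.7 and 238 ± 102 CPM (log2 fold change -0.79 ± 0.22, edgeR adjusted p = 0.0902). The desaturase Scd1, which fat tissue also expresses in large amounts, had a log2 fold change of 1.28 ± 0.45 (edgeR adjusted p = 0.229). The median of the list was -0.18.

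**Figure D3:**
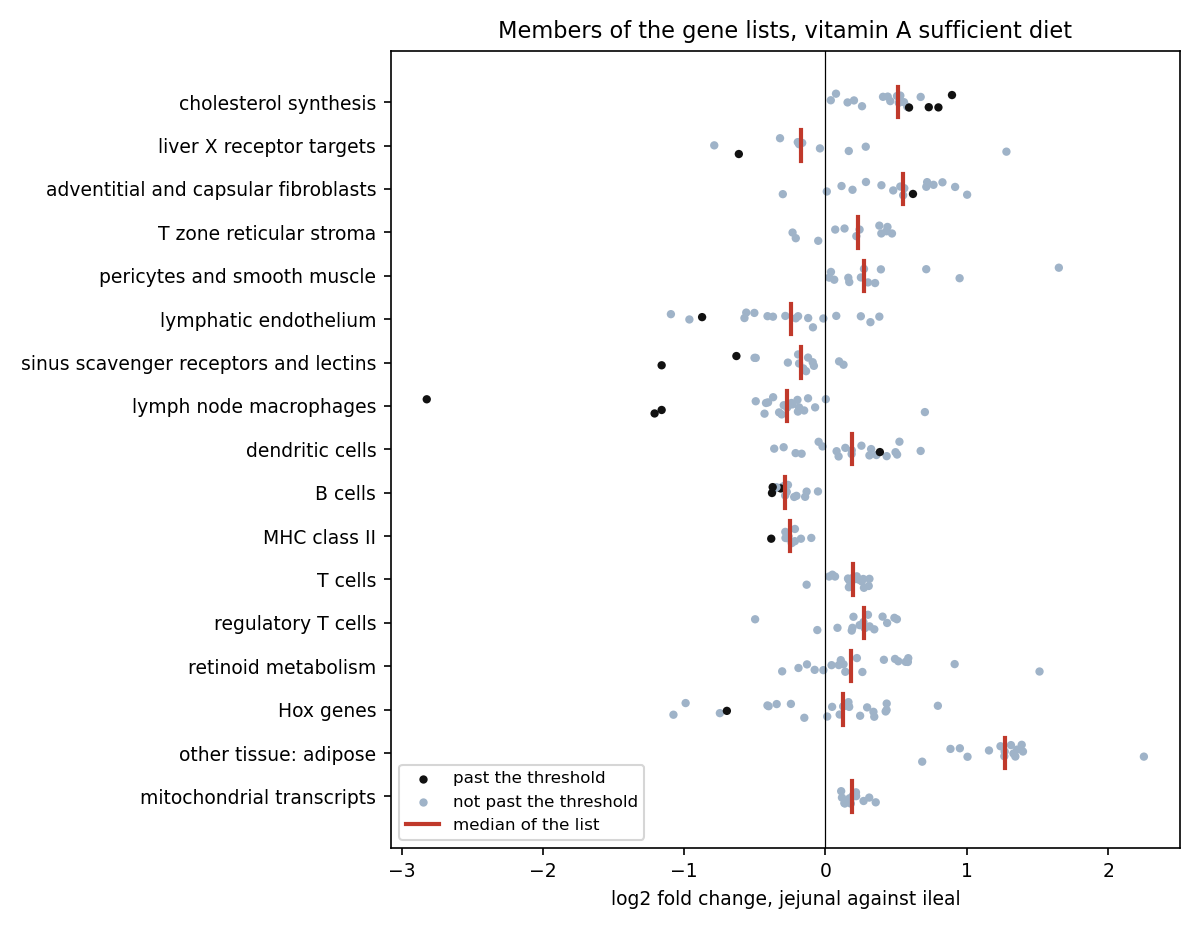
Log2 fold change of jejunal against ileal nodes (horizontal axis) for the tested members of 17 gene lists, with 1 point for each gene. Black points passed the threshold and red bars mark medians, which lie at 0.51 for cholesterol synthesis, at -0.27 for macrophages and at 1.27 for adipose genes, where no member passed.

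The remaining genes higher in jejunal nodes included secreted and extracellular proteins. Gpx3, the extracellular glutathione peroxidase, stood at 108, 123, 109, 114 and 142 CPM in jejunal and at 48.6, 41.9, 86.9, 62.4 and 80.7 CPM in ileal libraries. Every jejunal value exceeded every ileal value (log2 fold change 0.92 ± 0.19, edgeR adjusted p = 0.0107), and the call was lost without ileal replicate 1 or 2. Its relative of the endoplasmic reticulum, Gpx8, averaged 9.68 ± 1.2 and 4.32 ± 1.31 CPM (2.29-fold higher, edgeR adjusted p = 0.0423). Itih4, a plasma protein of the inter-alpha-trypsin inhibitor family, averaged 13.2 ± 2.36 and 5.51 ± 2.49 CPM (log2 fold change 1.26 ± 0.30, edgeR adjusted p = 0.0324). Duodenal nodes (13.7 ± 3.9 CPM) matched the jejunal level of Itih4 and colonic nodes (3.01 ± 1.1 CPM) lay below the ileal level. Psg22, a pregnancy-specific glycoprotein, averaged 16.4 ± 4.27 and 7.62 ± 3 CPM (log2 fold change 1.12 ± 0.27, edgeR adjusted p = 0.0304). The call was lost in 9 of the 10 fits that left out 1 library for Gpx8, in 8 for Itih4 and in 7 for Psg22.

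Arhgap5, which switches off small GTPases, was the 1 higher gene that passed in each of those 10 fits. It stood at 21.8, 24.3, 21, 19.8 and 19.4 CPM in jejunal and at 13.9, 15.8, 15.2, 12 and 11.3 CPM in ileal libraries, without overlap (log2 fold change 0.64 ± 0.12, edgeR adjusted p = 0.00742). Fam3d, a secreted protein of the FAM3 family, was higher as well (7.8 ± 0.91 against 4.53 ± 0.388 CPM, log2 fold change 0.77 ± 0.16, edgeR adjusted p = 0.0121). The neuropeptide Y receptor Npy1r (5.02 ± 0.597 against 2.56 ± 0.614 CPM, edgeR adjusted p = 0.0432) passed in none of the 10 fits that left out 1 library. Lrrc75b (5.8 ± 1.69 against 2.49 ± 1.18 CPM, edgeR adjusted p = 0.0206) completed the 12 largest rises above 5 CPM. The complement genes C1s1 (236 against 180 CPM, log2 fold change 0.39 ± 0.08, edgeR adjusted p = 0.0106) and C4b (496 against 376 CPM, 0.40 ± 0.09, 0.0279) were also higher and were picked out after their values were seen. C1s1 passed in 9 and C4b in 3 of the 10 fits that left out 1 library.

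Fibroblast genes of the capsule and vessel walls had 1 call among 17 tested, Cd34. This sialomucin of adventitial fibroblasts and blood endothelium averaged 49.8 ± 8.23 and 32.3 ± 5.68 CPM (log2 fold change 0.62 ± 0.13, edgeR adjusted p = 0.012), with ranges that overlapped between the lowest jejunal (39 CPM) and highest ileal library (41.5 CPM). The call was lost without jejunal replicate 2, ileal replicate 1 or ileal replicate 2. The median of the list was 0.55, 16 of 17 members were positive and 12 had an unadjusted p under 0.05. The proteoglycan Dcn averaged 546 ± 102 and 373 ± 97.5 CPM (edgeR adjusted p = 0.0891) and Dpt, another matrix protein, 49.9 ± 6.5 and 30.6 ± 9.26 CPM (edgeR adjusted p = 0.161). Fat tissue also holds fibroblasts of this kind, and the adipose sum was higher in jejunal libraries. With a term for that sum the median of the list was 0.35 and Cd34 passed (edgeR adjusted p = 0.0455).

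**Figure D4:**
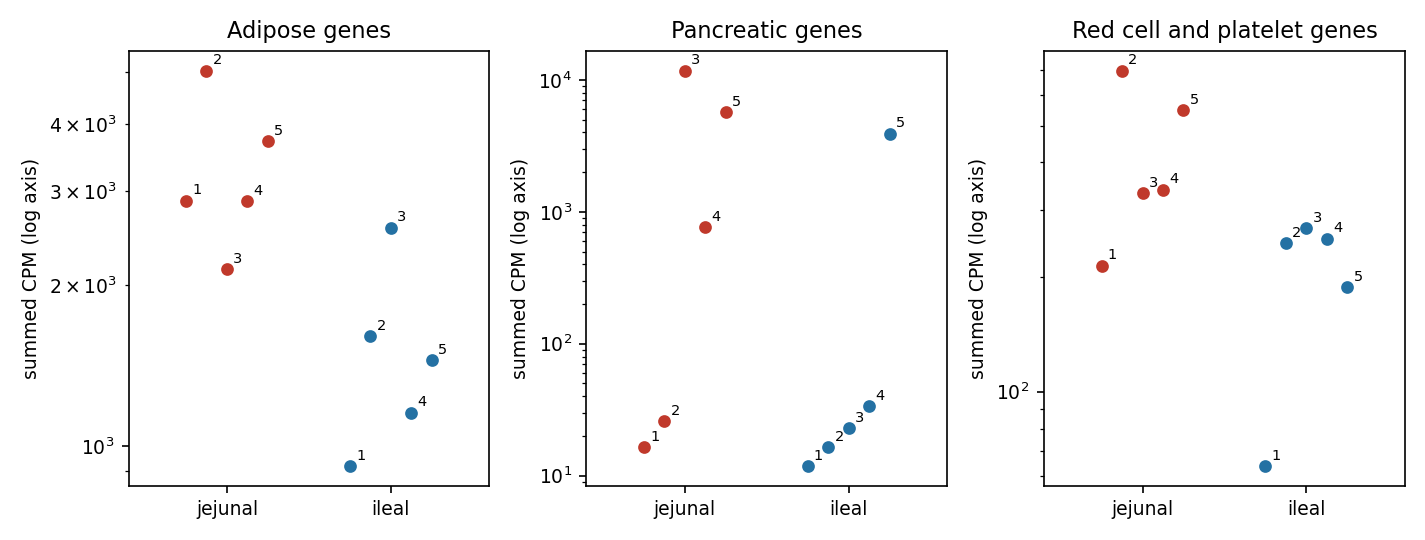
Summed CPM (log axes) of adipose, pancreatic and red cell or platelet genes in the 10 libraries, with replicate numbers beside the points. Jejunal replicates 1, 2, 4 and 5 lie above every ileal library in adipose genes, and 4 libraries exceed 100 CPM in pancreatic genes.

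Adipose genes summed to between 2139 and 5032 CPM in jejunal and to between 919 and 2560 CPM in ileal libraries, with only jejunal replicate 3 below the highest ileal library. None of the 15 tested adipose genes passed, 12 had an unadjusted p under 0.05 on the higher side, all 15 were positive and their median log2 fold change was 1.27. The hormone Adipoq averaged 175 ± 74.9 and 70.5 ± 32.3 CPM (edgeR adjusted p = 0.444), and the lipid droplet protein Plin1 107 ± 29.8 and 46.2 ± 19.5 CPM (edgeR adjusted p = 0.369). Pancreatic genes summed to 16.4, 25.9, 11792, 769 and 5729 CPM in jejunal and to 11.9, 16.4, 22.8, 33.8 and 3911 CPM in ileal libraries. Those above 100 CPM were jejunal replicates 3, 4 and 5 and ileal replicate 5, and without them 12 genes passed, 11 of them among the 96. These include every male jejunal library, so that fit sets female jejunal libraries against ileal libraries of both sexes. Pancreatic sum, sex and the smaller jejunal set cannot be told apart in it. With a term for the adipose sum 158 genes passed, 70 of them among the 96. Red cell and platelet genes summed to 214 to 697 CPM in jejunal and to 63.8 to 269 CPM in ileal libraries, with 0 calls among 6 tested genes. The part of these tissues in the other results was not tested beyond these 2 fits.

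B cell genes had 3 calls among 15 tested genes, all lower in jejunal nodes, and all 15 log2 fold changes were negative (median -0.29). Fcrla, a B cell protein related to Fc receptors (log2 fold change -0.38 ± 0.09, edgeR adjusted p = 0.0285), and the inhibitory receptor Cd72 (-0.32 ± 0.08, 0.0434) were among the calls. Fcrla passed in 2 and Cd72 in 1 of the 10 fits that left out 1 library. The antigen presentation modulator H2-Ob, which B cells express, averaged 365 ± 20.9 and 477 ± 40.4 CPM (log2 fold change -0.38 ± 0.08, edgeR adjusted p = 0.00851) and was the 1 call among 10 class II genes, all of them negative (median -0.25).

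Germinal centre B cell genes had 0 calls among 11 tested, with 10 negative, 5 at an unadjusted p under 0.05 on the lower side and a median of -0.48. The largest of these differences was that of Rgs13, a regulator of G protein signalling, at 1.91 ± 1.46 and 4.82 ± 2.92 CPM (log2 fold change -1.36 ± 0.48, edgeR adjusted p = 0.244). T cell genes had 0 calls among 17 tested, with 16 positive and a median of 0.19. The T cell receptor component Cd3e averaged 102 ± 7.91 and 82.3 ± 11.6 CPM (log2 fold change 0.31 ± 0.11, edgeR adjusted p = 0.277). Regulatory T cell genes also had 0 calls among 16 tested (median 0.27), with Foxp3 at 24.2 ± 4.24 and 17 ± 2.63 CPM (log2 fold change 0.51 ± 0.18, edgeR adjusted p = 0.268). Among 21 tested dendritic cell genes Flt3, the growth factor receptor of dendritic cells and their precursors, was higher at 61.9 ± 4.77 against 47.8 ± 7.34 CPM (log2 fold change 0.38 ± 0.09, edgeR adjusted p = 0.0368). The ranges of Flt3 overlapped and it passed in 3 of the 10 fits that left out 1 library. Among 13 tested genes of neutrophils and monocytes the chemokine receptor Cxcr2 was lower, at 15.5 ± 1.86 against 25.3 ± 7.13 CPM (log2 fold change -0.71 ± 0.16, edgeR adjusted p = 0.021), and passed in 4 of the 10. The rest of that list mostly had the opposite sign, with 11 of 13 members positive, 4 at an unadjusted p under 0.05 on the higher side and 2 on the lower side, and a median of 0.43. Plasma cell genes had 0 calls among 19 tested. The IgA heavy chain Igha ranged from 860 to 4477 CPM in jejunal and from 1408 to 4254 CPM in ileal libraries, and its log2 fold change (-0.10 ± 0.42) changed sign among the alternative fits.

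Chemokines that place lymphocytes did not pass. Ccl19, made by T zone stroma, averaged 188 ± 52.3 and 139 ± 40 CPM (log2 fold change 0.43 ± 0.14, edgeR adjusted p = 0.197). Cxcl13, made by follicular stroma, averaged 44.6 ± 8.81 and 56.8 ± 10.6 CPM (-0.35 ± 0.14, 0.348). The small intestinal homing receptor Ccr9 stood between 42.9 and 50.5 CPM in jejunal and between 32.2 and 42.2 CPM in ileal libraries, which do not overlap, yet its adjusted p was 0.444 in edgeR's quasi-likelihood test (log2 fold change 0.31 ± 0.14). Its ligand Ccl25 (log2 fold change -0.26 ± 0.20, sign changed in 2 alternative fits) and the colonic homing receptor Gpr15 (-0.18 ± 0.17) also lay within the spread of the libraries.

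Retinoid genes, which the diet of the series addresses, had 0 calls among 20 tested genes of metabolism and 0 among 15 of the response, with medians of 0.18 and -0.01. Of the 20 metabolism genes 15 were positive. In edgeR's test 6 of them had an unadjusted p under 0.05 on the higher side and 0 on the lower side. Of the 15 response genes 7 were positive, with 2 at that level on each side. Over all genes tested the shares were 4.87% higher and 4.81% lower. Aldh1a2, the enzyme that makes retinoic acid in stroma and dendritic cells, stood at 42.8, 48.2, 50.3, 50.6 and 55.2 CPM in jejunal and at 33.3, 37.5, 36.3, 29 and 48.6 CPM in ileal libraries. Only ileal replicate 5 reached into the jejunal range (log2 fold change 0.41 ± 0.26, edgeR adjusted p = 0.676). Lrat, which stores retinol as esters, averaged 18.5 ± 3.14 and 12.4 ± 1.91 CPM (0.57 ± 0.24, 0.373). Cyp26b1, which degrades retinoic acid and is induced by it, stood at 9.39, 11.4, 8.78, 10.7 and 24.2 CPM in jejunal and at 4.43, 5.5, 5.12, 6 and 13 CPM in ileal libraries. Replicate 5 was far above the rest in both nodes, and without ileal replicate 5 the gene passed (log2 fold change 1.30, edgeR adjusted p = 0.044), against 0.91 ± 0.32 and 0.224 with all libraries. Dhrs3 (log2 fold change -0.13 ± 0.16) and Hic1 (0.08 ± 0.15), both known to respond to retinoic acid, did not pass.

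Hox genes keep a record of position along the body axis in stromal cells. Of 25 tested, Hoxd9 was lower in jejunal nodes at 8.89, 11.2, 13.9, 14.7 and 14.8 CPM against 16.9, 18.9, 25.4, 24.3 and 16.9 CPM in ileal libraries. The groups did not overlap (log2 fold change -0.70 ± 0.17, edgeR adjusted p = 0.0442), but the call held in 1 of the 10 fits that left out 1 library, the fit without ileal replicate 5. Neighbouring genes of the cluster, Hoxd10 (-0.99 ± 0.28, 0.0919) and Hoxd8 (-0.75 ± 0.24, 0.158), did not pass in edgeR's quasi-likelihood test. Duodenal nodes averaged 8.71 ± 2.63 CPM of Hoxd9 and colonic nodes 14 ± 3.04 CPM, so the ileal mean (20.5 ± 4.11 CPM) was the highest. The median of the list was 0.13.

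The same comparison was then made in nodes of mice on the vitamin A deficient diet, which are other libraries fitted in the same model. There 107 genes (0.592%) passed, 70 (0.387%) higher and 37 (0.205%) lower in jejunal nodes. Of the 96 genes called on the sufficient diet 12 passed on the deficient diet too, all in the same direction, which is 12.5% of the sufficient and 11.2% of the deficient calls. Among them were Adgrg3, Cd5l, Ednrb, Flt3, Gpx3, Il22ra2, Mylip, Psg22, Sqle, Syndig1l and Unc5b. Of the 96, 90 had the same sign. The share with the same sign over all genes tested was not worked out, so the 90 are not read as agreement between the diets. Cd5l averaged 93.7 ± 33.8 CPM in deficient jejunal and 246 ± 37.5 CPM in deficient ileal nodes (log2 fold change -1.39 ± 0.31, edgeR adjusted p = 0.0148). Ednrb averaged 30.8 ± 7.79 and 76.3 ± 13.4 CPM (-1.31 ± 0.22, 5.67e-04) and Il22ra2 12.1 ± 3 and 24.6 ± 6.07 CPM (-1.02 ± 0.24, 0.0292). Sqle averaged 15.1 ± 3.98 and 7.95 ± 0.756 CPM (0.92 ± 0.18, 0.00414). Stab2, by contrast, averaged 191 ± 41.8 and 195 ± 22.5 CPM there (-0.03 ± 0.15).

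**Figure D5:**
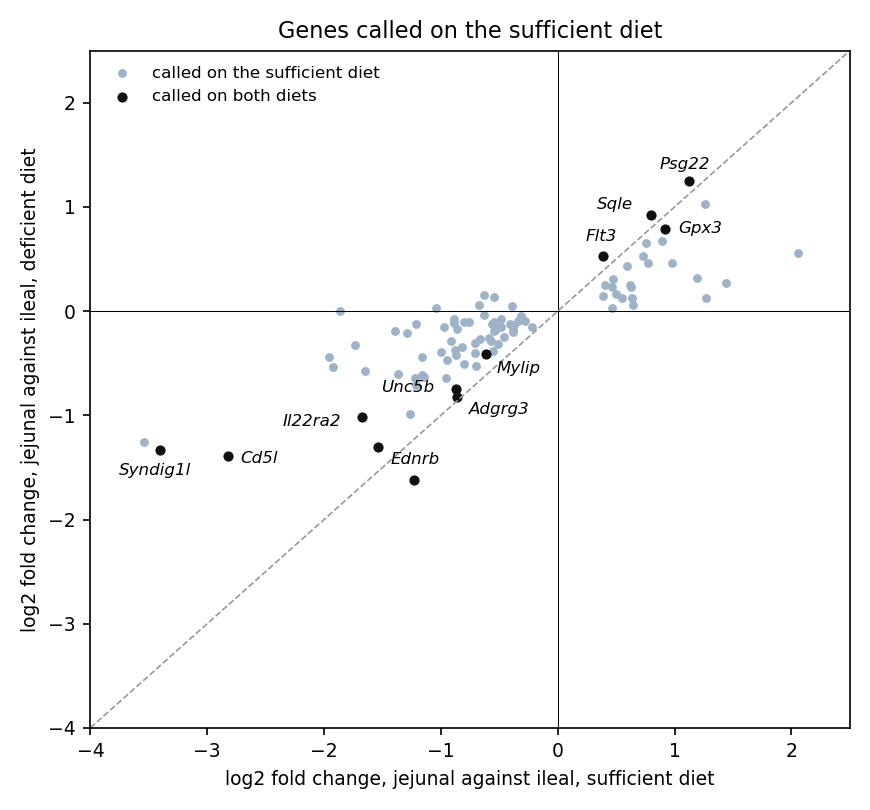
Log2 fold change of jejunal against ileal nodes on the sufficient diet (horizontal axis) and on the deficient diet (vertical axis) for the 96 genes called on the sufficient diet. The 12 black points passed on both diets and lie in the 2 quadrants of equal sign, and the dashed line marks equal values.

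Whether the difference between the nodes itself changed with the diet was tested by an interaction term. No gene passed in edgeR's quasi-likelihood test (0 of 18077, 0%), and 811 (4.49%) had an unadjusted p under 0.05. With limma-voom, with DESeq2, with a block for replicate number, and in edgeR without sufficient jejunal replicate 1 or sufficient ileal replicate 4, 1 gene passed, Cryz, an enzyme that reduces quinones. Cryz averaged 5.89 ± 1.23 and 10.1 ± 2.09 CPM in jejunal and ileal nodes of the sufficient diet and 8.44 ± 1.32 and 4.93 ± 1.26 CPM in those of the deficient diet (interaction -1.55 ± 0.30, edgeR adjusted p = 0.1). The next smallest unadjusted p-values included Ms4a8a (interaction -1.51 ± 0.35), Cxcl13 (-0.87 ± 0.20), Adamts5 (0.88 ± 0.20) and Syndig1l (-2.07 ± 0.51), with edgeR adjusted p-values of 0.437, 0.437, 0.437 and 0.493. The interactions of Cd5l (-1.43 ± 0.44, edgeR adjusted p = 0.78) and Stab2 (-0.60 ± 0.21, 0.925) did not pass. All deficient mice were female, so the interaction compares nodes of females with nodes of both sexes.

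Sex was tested in the same way within the sufficient diet. For a change of the node difference with sex no gene passed in edgeR's quasi-likelihood test (0 of 18077, 0%), 495 (2.74%) had an unadjusted p under 0.05, and limma-voom also gave 0. With 2 females and 3 males in each node, this does not show that the sexes are alike, and Syndig1l had a sex interaction of 2.08 ± 0.94 (male minus female, edgeR adjusted p = 1.0). Further fits kept the sufficient libraries of only 1 sex, beside all libraries of the deficient diet, which entered the estimate of the spread. In males the spread was therefore estimated in part from deficient females. These fits gave 2 calls in females, Cd5l (log2 fold change -2.99, edgeR adjusted p = 0.00899) and Syndig1l (-4.86, 2.85e-04), and 4 in males. The calls in males were Cd5l (-2.73, 0.00196), Syndig1l (-2.77, 0.00275), Ms4a8a (edgeR adjusted p = 0.00323) and Il22ra2 (-1.97, 0.004). Without ileal replicate 1 the test for sex has 1 female ileal library, replicate 2, so its calls are not counted here. In that fit AW554918 had a sex interaction of -4.31 (male minus female), and Gm37110 and Gm44183 shared 1 value, -8.56. These are predicted or unnamed genes.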

How the data were processed

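The authors deposited a table of estimated counts per gene, whose making is not described further in the sources used here. The submitters' processing notes name kallisto, limma, edgeR, GRCm39 and mm10, without their versions or roles. Among nonzero deposited values 0.122% were whole to within 1e-06, so the estimated counts were rounded. Of 56600 entries 379 had no gene name, and 0 columns of per-sample values went unused. Column names of the deficient diet carry "3rd", whose meaning is not given.

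Genes were filtered with filterByExpr by group and scaled by TMM. All 50 libraries were fitted with edgeR 4.0.16 (R 4.3.3) by the quasi-likelihood test, with group means by diet and node plus sex as a covariate, and p-values were adjusted by Benjamini-Hochberg over 18077 genes. A positive log2 fold change means higher in jejunal nodes. Depth was 5836288 to 8487925 estimated counts, which limits precision for genes of a few counts. Tested on simulated data of 17843 genes, the fit recovered 85 of 100 genes changed by 1 and 40 of 100 changed by 0.5 on the log2 scale, and 6.72% of calls were unchanged genes. The changed genes were drawn from those with a mean of at least 5 CPM in ileal nodes, so these rates do not cover lower genes. Counts were simulated independently for each library, without a sex effect within groups.

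Members and gene lists were chosen with earlier results of these data known. The rule named the 12 largest called changes in each direction with at least 5 CPM in the higher group, up to 4 called genes of each list, 20 set genes, and the genes with the smallest adjusted p in each interaction. Other list members were named after their values were seen. Alternatives were RLE size factors, other low-count filters, limma-voom (limma 3.58.1), DESeq2 1.42.0, a replicate block, no sex term, fewer libraries and leaving out each library. Added after seeing the data were the fit without 4 libraries of high pancreatic sum, the adipose term and the deficient contrast under the interaction's alternatives. Promoter windows came from RefSeq, build GRCm38.p6. Figures were drawn with Python 3.11.15 and matplotlib 3.10.9. Some genes are not reported here.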

Additional observations from a re-analysis of the deposited data

Results flagged for a closer look

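In each group of 5 libraries, the gap between the highest or lowest library and its nearest neighbour was divided by the range of the group, and 13 of 194 groups exceeded 0.71. Chance flags about 1 in 20 groups. Replicate 5 stood apart most often. It was the highest ileal library for Insig1 (0.766 of the range, 32.2 to 50 CPM), the highest jejunal library for Sqle (0.844, 23.1 to 43 CPM) and the lowest jejunal library for Fam3d (0.834, 6.19 to 8.39 CPM). For Cyp26b1 it was the highest library of both nodes (0.832 in jejunal and 0.816 in ileal nodes). It was also the highest ileal library in summed pancreatic genes (0.994, 11.9 to 3911 CPM), and the highest jejunal library in type 2 cytokine and interleukin 33 genes (0.841) and in intestinal epithelium and liver genes (0.729).

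Replicate 2 was the lowest ileal library for Fcrla (0.719, 82 to 102 CPM). It was the lowest jejunal library in summed retinoic acid response genes (0.791) and in summed homing genes (0.712). Ileal replicate 3 was the highest in pericyte and smooth muscle genes (0.745). Jejunal replicate 3 was the lowest in liver X receptor targets (0.744).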

How the results depend on the processing

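The 96 calls became 202 with DESeq2 (94 shared), 2 in females only, 4 in males only, 12 without the 4 libraries with a high pancreatic sum (11 shared), 158 with the adipose term (70 shared), and 37 to 148 when 1 library was left out. The fits in females only and in males only kept all libraries of the deficient diet. RLE size factors, both other filters, limma-voom, no sex term and the 25 sufficient libraries gave 65 to 118. The 10 libraries alone gave 71 calls, of which 30 were shared and 54.9% were higher, against 27.1%. The 107 calls on the deficient diet became 178 with DESeq2 and 58 to 126 when 1 library was left out. The diet interaction gave 1 call with limma-voom, 1 with DESeq2 and 0 to 1 when 1 library was left out. For the sex interaction, leaving out a female library leaves 1 female in that node, and calls from such fits are not counted here. Over 54 named genes, 14 of 1242 values changed sign. Igha was 0.18 in males only and -0.32 to 0.13 when 1 library was left out. Ccl25 was 0.13 in females only and 0.021 without the 4 libraries. Adgre1 was -0.0091 with the replicate block, -0.027 in females only, -0.15 without the 4 libraries, -0.13 with the adipose term and -0.099 to 0.059 when 1 library was left out. The cause of these shifts was not tested. Genes of a few counts are limited by depth.

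With the replicate block, calls numbered 192 on the sufficient diet (95 shared), 166 on the deficient diet and 1 for the diet interaction, and the sufficient diet had 8 calls among cholesterol genes, against 4, and 3 among lymphatic genes, against 1. Deviations of same-numbered jejunal and ileal libraries correlated at 0.632, 0.671, 0.0571, 0.323 and 0.546, and those of differently numbered libraries at -0.538 to 0.414. Thus 3 of 5 jejunal libraries correlated best with their own number, above every differently numbered pair. As this did not hold for all 5, the main fit did not use the numbers as pairing. Whether same-numbered libraries shared a mouse or a batch cannot be told from the labels.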

Other observations

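Fbxo40, a gene of low level picked out after its values were seen, averaged 0.259 ± 0.133 and 3.2 ± 2.65 CPM (SD, n = 5) in jejunal and ileal nodes (log2 fold change -3.54 ± 0.84, edgeR adjusted p = 0.0298), the largest fall among the 96 calls. Its rounded counts were 2, 2, 3, 1 and 1 in jejunal and 49, 22, 32, 2 and 8 in ileal libraries, so the groups overlapped. The call held in 2 of the 10 fits that left out 1 library.

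Interferon response genes had 0 calls among 23 tested in edgeR's quasi-likelihood test and 0 at an unadjusted p under 0.05, with a median log2 fold change of -0.36 and 3 members positive. Their sums were 1133 to 1327 CPM in jejunal and 1052 to 1798 CPM in ileal libraries and overlapped. Genes of type 2 cytokines and the interleukin 33 axis summed to 160 to 209 CPM in jejunal and 122 to 149 CPM in ileal libraries without overlap, with 0 calls among 6 tested. These sums cover only the 6 tested of the 12 genes listed. Of the 43 lists, dendritic cell genes were the only other one without overlap, at 2107 to 2265 CPM in jejunal and 1959 to 2019 CPM in ileal libraries. The lack of overlap is therefore not read as a result about these genes.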
